A study of Mus musculus with 59 samples.

Results

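The 4 Hox clusters of the mouse, Hoxa on chromosome 6, Hoxb on chromosome 11, Hoxc on chromosome 15 and Hoxd on chromosome 2, were followed through 16 lists of ChIP-seq peaks from reprogramming fibroblasts and embryonic stem cells (ESCs). A site belonged to a cluster when it overlapped the span from the first to the last of 38 Hox genes, widened by 100 kb on each side, and each site was counted once over all lists. This gave 108 sites of 105010 in the genome. CTCF held 106 of them in at least 1 of 15 lists, and 2 were found in the SMARCA5 list alone. The spans were chr6:52162417-52260880 (Hoxa2 to Hoxa13, 98.5 kb), chr11:96194316-96368254 (Hoxb13 to Hoxb1, 174 kb), chr15:102921131-103036856 (Hoxc13 to Hoxc4, 116 kb) and chr2:74668225-74765142 (Hoxd13 to Hoxd1, 96.9 kb). Coordinates are those of mm10. "Inside" a gene means that the site overlapped its RefSeq span, exon or intron, by at least 1 bp. The Hoxa3, Hoxb3 and Hoxd3 spans are long and contain other Hox genes, so a site inside them can lie next to a neighbour.

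Hox genes encode homeodomain transcription factors that give positional identity along the body axis. Their order on the chromosome follows their paralog number, from low numbers expressed in the anterior body to high numbers expressed posteriorly. In pluripotent cells the clusters are covered by Polycomb, and in fibroblasts a subset is active according to where in the body the cells came from. CTCF is a zinc-finger protein that binds a long motif, halts cohesin and so sets loop anchors and domain borders, and it is known for marking borders between silent and active Hox genes. SMARCA5 (SNF2H) is the ATPase of ISWI chromatin remodellers, which space nucleosomes next to bound CTCF.

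The lists came from 31 ChIP samples, and the 28 input samples had none. Day 0 cells, the starting mouse embryonic fibroblasts, carried an shRNA against luciferase (control) or against Ctcf, 2 samples a list. Day 10 cells carried retroviral OSKM (Oct4, Sox2, Klf4 and Myc) alone, OSKM with overexpressed Ctcf, or OSKM with Ctcf and an shRNA against Smarca5, with 2, 2 and 1 samples. Sorted cells carried doxycycline-inducible lentiviral OSKM with rtTA and either the luciferase or the Ctcf shRNA. They comprised Thy1+ cells (days 3 and 9), SSEA1- Thy1- and SSEA1+ cells (days 6 and 9), 2 samples a list, and Oct4-GFP+ cells of day 12, 3 samples a list. Thy1 is a fibroblast surface marker that is lost early in reprogramming, SSEA1 is gained on the way to pluripotency, and the Oct4-GFP reporter of these OG2 fibroblasts marks the end of the path. Infected cells were grown with vitamin C. The E14Tg2a ESC line gave 1 wild-type and 1 Smarca5 knockout sample, and 2 samples of SMARCA5 came from ESCs that overexpressed a Flag-biotin-tagged protein. The tagged cells also carried the BirA ligase and were picked as single clones, and the knockout was made with paired Cas9-nickase guides in ESCs grown with LIF and inhibitors of MEK and GSK3. For the day 3 Thy1+ samples the labels contradict each other on which received the Ctcf shRNA, and the titles were followed.

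Each group has 1 list, so differences between lists have no replicate check and no test was possible. The deposited lists give positions without signal, so a weaker peak cannot be told from an unchanged one. Fewer bound cells and less binding per cell cannot be told apart in bulk samples. The intervals given are Wilson 95% intervals and cover counting error only. The whole lists held from 23600 (day 0, Ctcf shRNA) to 89567 peaks (Smarca5 knockout ESCs). Read depth is unknown. In what follows, "kept", "absent", "lost", "new" and "added" speak of presence in a list only.

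Promoter sequences show where the sites meet the genes. RefSeq promoter windows (GRCm38.p6, 250 bases before to 50 bases after a start) were at hand for 22 of the 38 genes, as 24 windows, and 4 of these windows overlapped a site. The share of all promoters that overlap a site is not given here, so this count has no background. The core CTCF letters, CC then AG after any 3 bases and GGC after any 2 more, were searched on both strands, and overlaps with other motifs were not examined. They occurred in 4 of the 24 Hox windows and in 8.61% of 32851 promoters in all. Among the Hox windows, only that of Hoxc4 both held these letters and overlapped a site. The windows below lie wholly within a site. They are Hoxa5 (chr6:52204538-52204837, minus strand), whose site is in all 15 CTCF lists, Hoxd10 (chr2:74691641-74691940, plus strand), in 11, Hoxc4 (chr15:103034145-103034444, plus strand), in 2, and the Hoxb neighbour Ttll6 (chr11:96133536-96133835, plus strand), in all 15. Capitals mark matches to the core letters, all on the strand opposite to the printed one.
Hoxa5: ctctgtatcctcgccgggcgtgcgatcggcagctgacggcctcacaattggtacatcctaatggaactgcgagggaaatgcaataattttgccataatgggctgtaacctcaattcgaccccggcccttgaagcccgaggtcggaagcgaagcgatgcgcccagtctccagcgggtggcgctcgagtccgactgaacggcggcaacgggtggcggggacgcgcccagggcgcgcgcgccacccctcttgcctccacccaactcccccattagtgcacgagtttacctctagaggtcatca
Hoxd10: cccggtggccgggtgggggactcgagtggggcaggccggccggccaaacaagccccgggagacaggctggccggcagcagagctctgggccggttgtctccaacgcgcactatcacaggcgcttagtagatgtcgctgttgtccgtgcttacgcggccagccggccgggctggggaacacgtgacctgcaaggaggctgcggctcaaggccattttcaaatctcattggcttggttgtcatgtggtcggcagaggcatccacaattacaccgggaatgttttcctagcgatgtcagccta
Hoxc4: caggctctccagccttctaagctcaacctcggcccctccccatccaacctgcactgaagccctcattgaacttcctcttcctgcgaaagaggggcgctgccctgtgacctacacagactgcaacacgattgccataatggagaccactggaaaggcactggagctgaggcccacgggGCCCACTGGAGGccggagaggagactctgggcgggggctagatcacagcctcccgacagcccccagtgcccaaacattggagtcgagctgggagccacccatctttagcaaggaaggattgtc
Ttll6: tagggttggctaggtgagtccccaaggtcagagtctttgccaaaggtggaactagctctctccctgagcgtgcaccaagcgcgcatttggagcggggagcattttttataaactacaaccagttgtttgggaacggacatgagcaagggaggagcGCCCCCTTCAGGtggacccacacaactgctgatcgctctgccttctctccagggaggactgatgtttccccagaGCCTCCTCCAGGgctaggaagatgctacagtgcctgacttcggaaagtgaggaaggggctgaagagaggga
The Hoxc4 window holds 1 match, at bases 178 to 189 counted from its first base. Ttll6, a tubulin-modifying enzyme, has 2 matches. Neither Hoxa5 nor Hoxd10 holds an exact match to these letters in this window. Near matches were not searched for, so whether these windows hold a CTCF motif cannot be judged from this. Longer stretches of the peaks were not analysed here.

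The shortest lists had the fewest Hox peaks and the longest the most. The day 0 control list had 34 Hox peaks, the Thy1+, SSEA1- Thy1-, SSEA1+ and day 12 control lists had 53, 53, 56 and 52, the day 10 OSKM list had 50 and wild-type ESCs had 82. Hoxb, the longest cluster, had the most in each of the 16 lists, from 14 to 32. Peaks were denser in the Hox regions than over the extent of all peaks in every list, by 2.03 times in the day 12 control list to 2.80 times in the day 0 Ctcf shRNA list. Hoxa had 25 CTCF sites in all, Hoxb 37, Hoxc 26 and Hoxd 18. Of these, 55 lay between the first and the last gene of their cluster and 51 in the flanks.

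**Figure D1:**
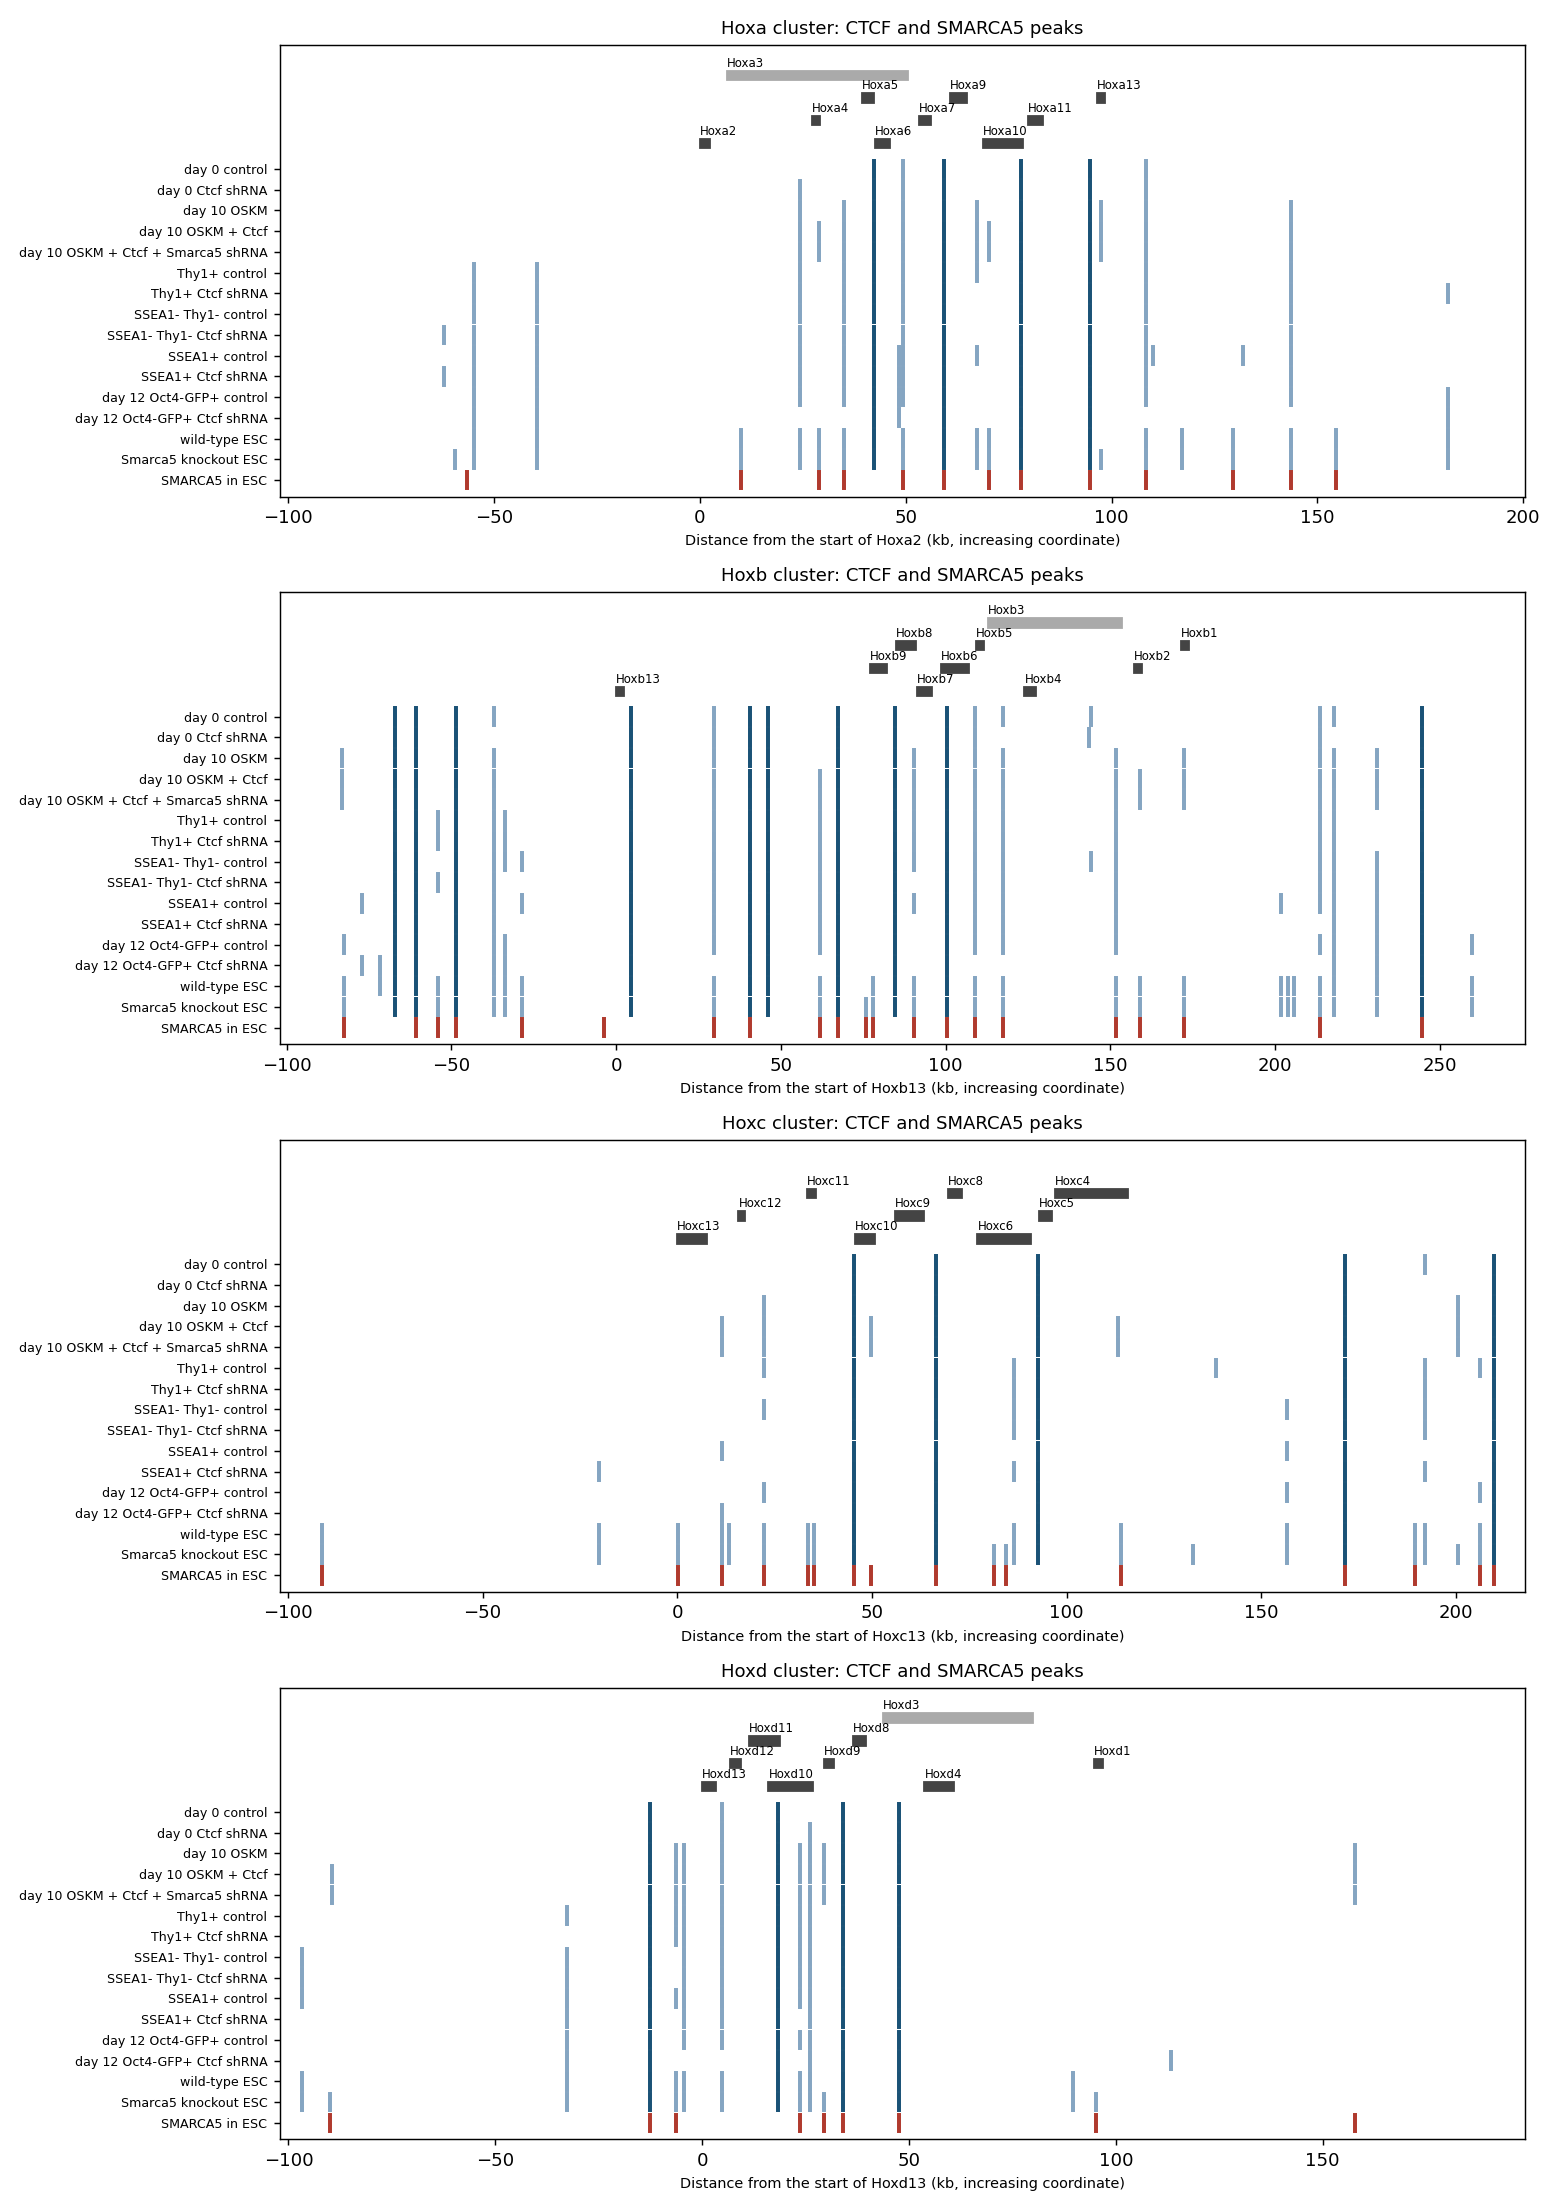
Peaks of each list (rows) at their distance from the lowest-coordinate gene of each cluster (x axis, kb). Dark blue ticks are sites in all 15 CTCF lists, light blue ticks other CTCF sites, red ticks SMARCA5, and boxes are gene spans, with the long Hoxa3, Hoxb3 and Hoxd3 spans in light grey. The 23 dark columns run through every CTCF row, and the ESC rows have the most ticks.

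A fixed set of 23 sites was present in all 15 CTCF lists, from fibroblasts to ESCs and with Ctcf or Smarca5 perturbed. That is 21.7% of the Hox CTCF sites (interval 14.9 to 30.5), against 16.2% of the 102380 CTCF sites of the genome. Hoxa had 4, Hoxb 10, Hoxc 5 and Hoxd 4. Between the first and last genes the share was 16 of 55 (29.1%, interval 18.8 to 42.1) and in the flanks 7 of 51 (13.7%, interval 6.81 to 25.7). At the other end, 12 sites were in a single CTCF list and 22 in 2 lists.

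**Figure D2:**
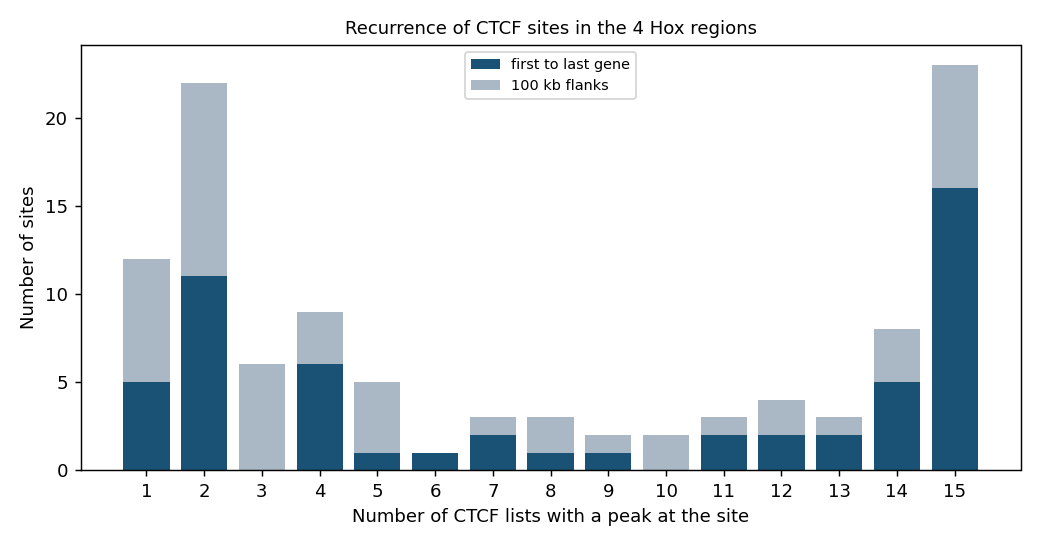
Number of Hox CTCF sites (y axis) by the number of CTCF lists in which they occur (x axis), split into sites from the first to the last gene and sites in the 100 kb flanks. Sites pile up at both ends, with 23 in 15 lists and 34 in 1 or 2 lists.

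Of the 16 constant sites between first and last genes, 9 lay in an interval between paralog groups that also held a constant site in another cluster, and 7 did not. This takes the intervals just below group 9 as 1, although Hoxa7 is the lower neighbour in Hoxa. The wide intervals from Hoxb9 to Hoxb13 and from Hoxd4 to Hoxd8 were counted as intervals of 1 cluster. No chance value was computed for these counts. In each of the 4 clusters, a site in all 15 lists lay between the group 9 gene and its neighbour with the next lower number. These sites were chr6:52221601-52222008 between Hoxa7 and Hoxa9, chr11:96278689-96279162 between Hoxb8 and Hoxb9, 239 bp from Hoxb8, chr15:102987390-102987801 between Hoxc8 and Hoxc9, and chr2:74702140-74702625 between Hoxd8 and Hoxd9. Hoxa9 is a regulator of blood progenitors, Hoxb8 acts in the haematopoietic lineage that gives microglia, and Hoxc8 and Hoxc9 pattern the brachial and thoracic spinal cord. SMARCA5 was present at the Hoxa, Hoxc and Hoxd sites of this kind and was not listed at the Hoxb site.

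Between groups 5 and 6, Hoxa and Hoxc each had a constant site. The Hoxa site (chr6:52204430-52204890) touches both Hoxa5, which is needed for lung development, and Hoxa6, and covers the Hoxa5 promoter printed above. The Hoxc site (chr15:103013477-103013895) lies 113 bp from Hoxc5. The Hoxb counterpart (chr11:96303049-96303472, 40 bp from Hoxb5) was in 14 lists and absent from the day 12 Ctcf shRNA list. Hoxd has no group 5 or 6 gene, and its constant site chr2:74715725-74716144 lies between Hoxd8 and Hoxd4, inside the long Hoxd3 span.

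Groups 10 and 11 were the next shared position. Constant sites lay inside Hoxa10 (chr6:52240334-52240738), a gene needed in the uterus, at the edge of Hoxc10 facing Hoxc11 (chr15:102966385-102966815), and where the Hoxd10 and Hoxd11 spans overlap (chr2:74686250-74686702). Hoxd10 acts in lumbar motor neurons and Hoxd11 in the forearm skeleton. Hoxb lacks genes 10 to 12, and the long interval from Hoxb9 to Hoxb13 held 4 constant sites, the nearest 1881 bp from Hoxb13, a prostate regulator. Hoxa had 1 more constant site between Hoxa11 and Hoxa13, 1501 bp from the limb and genital gene Hoxa13, and Hoxb had 1 inside Hoxb6 (chr11:96294486-96294903).

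Within the clusters, the end with genes of groups 1 to 4 was compared with the rest, a split drawn after the positions were seen. Sites were placed between gene spans, leaving aside the 3 long spans, and the Hoxd site between Hoxd4 and Hoxd8 was put on the high-numbered side because Hoxd has no group 5 gene. On the low-numbered side 0 of 14 CTCF sites were in all 15 lists, where a count of 0 allows up to 21.4%, a limit that includes the genome share of 16.2%. From group 5 to group 13 the count was 16 of 41 (39.0%, interval 25.7 to 54.3). With the Hoxd4 to Hoxd8 site on the other side, the counts were 1 of 15 (6.67%, interval 1.19 to 29.8) and 15 of 40 (37.5%, interval 24.2 to 53.0). The flanks beyond Hoxb1 and Hoxc4 did hold constant sites. Neighbouring constant sites were 5.31 to 36.4 kb apart within the clusters. Across the low-numbered end of Hoxb and its flank, 144 kb separated the Hoxb6 site from the next constant site, which lies 70.5 kb beyond Hoxb1.

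**Figure D3:**
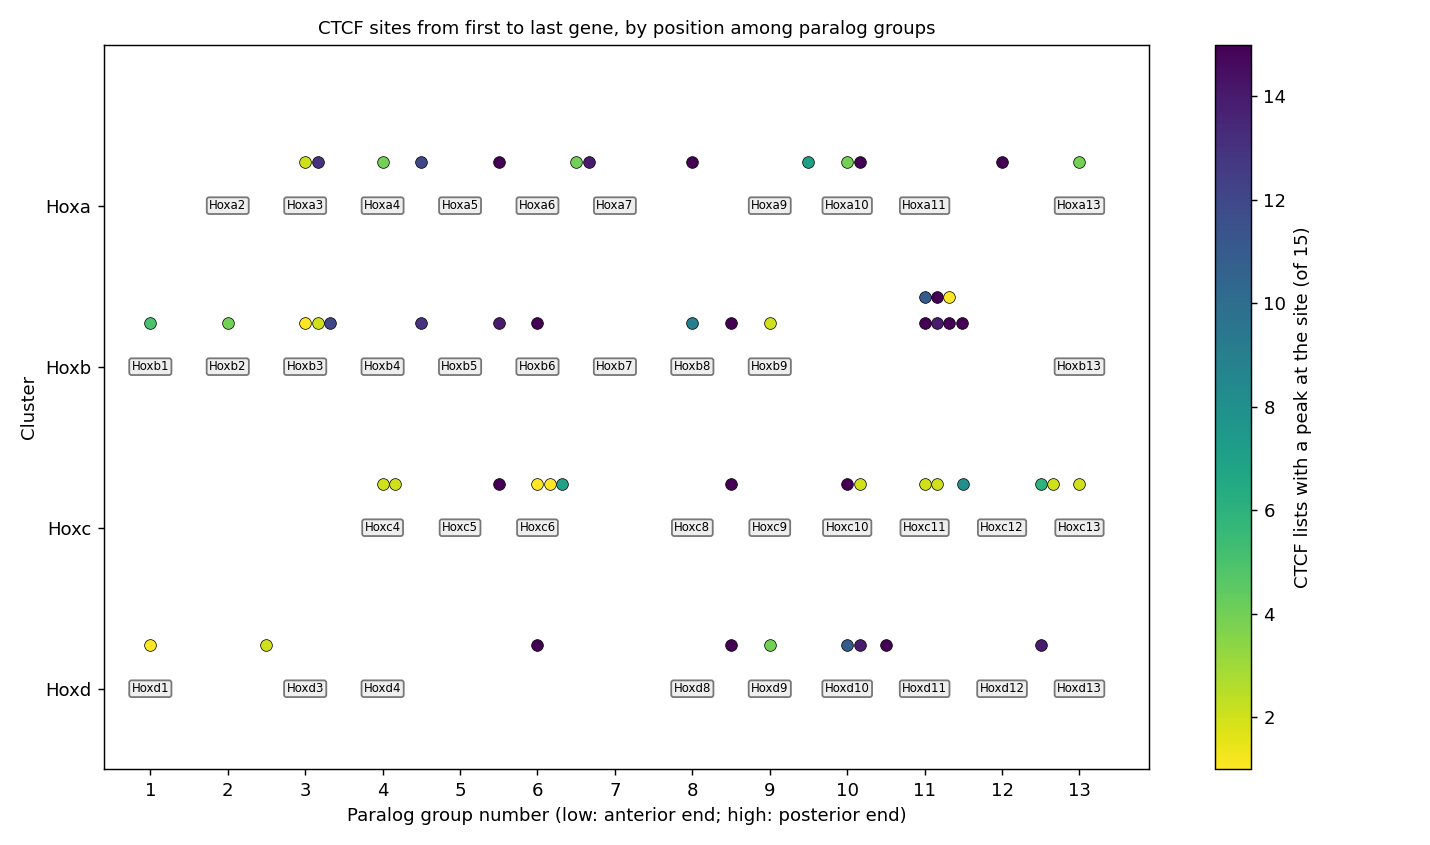
CTCF sites from the first to the last gene of each cluster (rows), placed by script at or between paralog groups (x axis) and coloured by the number of CTCF lists with a peak. Sites sharing a place are spread to the right or stacked, and the darkest points (15 lists) lie at or to the right of group 5, counting the Hoxd site between Hoxd4 and Hoxd8, which is drawn midway.

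The flanks held the other 7 constant sites. On the Hoxb13 side, 3 lay inside Ttll6, and on the far side of Hoxb1 the single site at chr11:96438765-96439171 was 25.4 kb from Skap1, a T cell adaptor gene. Hoxc had 2 beyond Hoxc4, at 55.6 kb and 93877 bp from it. Hoxd had 1 inside Evx2 (chr2:74655337-74656092), the homeobox neighbour of Hoxd13, at 12.1 kb from that gene. The Hoxa flanks had no constant site among 12, which allows up to 25.0%. The Hoxa site nearest to constant there, 9590 bp beyond Hoxa13, was in 14 lists and missing only under Ctcf shRNA at day 12.

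Every one of the 38 genes had a CTCF site within 10 kb, and 28 had a constant site within 10 kb. Neighbouring genes can share a site. The same shares over all genes are not given here, so the gene counts of this paragraph have no background. A site lay inside the span of 22 genes, and a constant site inside 9: Hoxa3, Hoxa5, Hoxa6, Hoxa10, Hoxb6, Hoxc10, Hoxd3, Hoxd10 and Hoxd11. A site lay wholly within the span of 18 genes, and a constant site within 6, since the constant sites of Hoxa5, Hoxa6 and Hoxc10 share only 158, 33 and 20 bp with them. Genes with variable sites only inside were Hoxa4, Hoxa13, Hoxb1, Hoxb2, Hoxb3, Hoxb8, Hoxb9, Hoxc4, Hoxc6, Hoxc11, Hoxc13, Hoxd1 and Hoxd9. The other 16 genes had sites only outside their spans: Hoxa2, Hoxa7, Hoxa9, Hoxa11, Hoxb4, Hoxb5, Hoxb7, Hoxb13, Hoxc5, Hoxc8, Hoxc9, Hoxc12, Hoxd4, Hoxd8, Hoxd12 and Hoxd13. Hoxa2, which sets the identity of the second pharyngeal arch, had a single site within 10 kb, and that site was in the ESC lists alone.

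Sites restricted to ESCs were not more frequent in the Hox regions than in the genome. A peak in wild-type or Smarca5 knockout ESCs and in no other CTCF list was found at 22 sites, 20.8% against 23.3% in the genome. Some of these were in the knockout list alone. Of the 22, Hoxc had 10, Hoxa 5, Hoxb 4 and Hoxd 3. Hoxc11 had 2 such sites inside its span and Hoxc13, which controls hair and nail growth, had 1 at its end. Hoxb9 also had 1 inside (chr11:96272092-96272491). Tagged SMARCA5 was present at 15 of these 22 (68.2%, interval 47.3 to 83.6), while 32.5% of all ESC-only CTCF sites held it. The ESC and SMARCA5 lists share 1 set of positions, and the part this plays in the overlap was not tested.

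A smaller group of 7 sites was in the day 10 and ESC lists only, 6.60% of Hox sites against 3.37% in the genome. Of these, 6 lay inside genes, at Hoxa4, Hoxa10, Hoxa13, Hoxb1, Hoxb2 and Hoxd9. Hoxb1, a gene of the fourth rhombomere, had its site (chr11:96366643-96367059) in all 3 day 10 lists, both ESC lists and the SMARCA5 list. The Hoxa4 (chr6:52191088-52191501), Hoxa10 and Hoxb2 sites appeared at day 10 only when Ctcf was overexpressed. In ESCs, the Hoxa13 and Hoxd9 sites and the one beyond Hoxc4 were in the Smarca5 knockout list and not in the wild-type list. None of the 8 lists of sorted cells had a peak at any of the 7.

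With overexpressed Ctcf at day 10, every Hox peak of the OSKM list was present and 8 were added. Over all peaks, 0.33% of the OSKM list were absent with Ctcf and 17.3% of the OSKM + Ctcf list were absent from OSKM alone. All 50 Hox peaks were kept (interval 92.9 to 100%), and 8 of 58 were only in the second list (13.8%, interval 7.16 to 24.9). The added sites were in Hoxa4, Hoxa10, Hoxb2, Hoxc10 and Hoxc4, between Hoxb13 and Hoxb9, between Hoxc13 and Hoxc12, and in Lnpk beyond Hoxd13. The Hoxc4 site is the one whose promoter is printed above, and it was in no list other than the 2 with overexpressed Ctcf. Of the 8, 5 were also CTCF sites of wild-type ESCs (62.5%, interval 30.6 to 86.3), against 75.6% of all added peaks.

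The list with the Smarca5 shRNA held the same Hox positions as OSKM with Ctcf. All 58 peaks were kept (interval 93.8 to 100%) and 0 were added, where 3 counts of 58 set the limit. In the genome 1.72% were absent and 0.542% were new. It rests on 1 ChIP sample.

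The Smarca5 knockout ESC list lacked 1 of 82 wild-type Hox peaks and held 10 others. Over all peaks, 2.88% of the wild-type list were absent from the knockout list and 9.81% of the knockout list were new. The Hox share kept was 98.8% (interval 93.4 to 99.8) and the share new was 10.99% (interval 6.08 to 19.1). The peak absent from the knockout lay in Ttll6's neighbour Calcoco2 (chr11:96122304-96122734), an autophagy receptor gene, 71582 bp from Hoxb13. New peaks were inside Hoxa13, Hoxd9, Hoxd1 and, with 2, Hoxc6, and 802 bp from Hoxb9. The other 4 were in flanks: in Halr1, a noncoding gene beyond Hoxa2, in Lnpk, and 2 beyond Hoxc4. Among the 10, 6 held tagged SMARCA5 in cells that have the protein (60.0%, interval 31.3 to 83.2), against 35.3% of all knockout-only peaks.

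SMARCA5 itself was at 49 of the 82 Hox CTCF peaks of wild-type ESCs (59.8%, interval 48.9 to 69.7), and 48.6% of all CTCF peaks held it. From first to last gene the count was 31 of 44 (70.5%, interval 55.8 to 81.8), in the flanks 18 of 38 (47.4%, interval 32.5 to 62.7). Hoxa had 12 of 19, Hoxb 19 of 32, Hoxc 13 of 19 and Hoxd 5 of 12, and these intervals overlap. Conversely, 49 of 59 Hox SMARCA5 peaks held CTCF (83.1%), against 86.1% in the genome. Constant sites held SMARCA5 at 16 of 23 (69.6%, interval 49.1 to 84.4), close to the 72.3% of all constant sites. Both SMARCA5 peaks with no CTCF in any list were in flanks, in Halr1 and 3430 bp from Hoxb13.

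Between 5 and 13 Hox peaks of the control lists were absent under Ctcf shRNA before day 12, and 19 at day 12. At day 0, 29 of 34 were kept (85.3%, interval 69.9 to 93.6), and 26.7% of all peaks were absent. Thy1+ cells kept 48 of 53 (90.6%, interval 79.7 to 95.9) against 18.9% of all peaks absent. SSEA1- Thy1- cells kept 47 of 53 (88.7%, interval 77.4 to 94.7) against 18% absent, and SSEA1+ cells 43 of 56 (76.8%, interval 64.2 to 85.9), again against 18% absent. In day 12 Oct4-GFP+ cells, 33 of 52 were kept (63.5%, interval 49.9 to 75.2) and 41.4% of all peaks were absent. The share kept over all peaks, from 58.6 to 82.0%, lay within the Hox interval in each of the 5 pairs.

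Positions found only with the Ctcf shRNA were few. At day 0 they were 3 of 32 (9.38%, against 10.4% of all peaks), in Thy1+ cells 1 of 49 (2.04% against 5.5%) and in SSEA1- Thy1- cells 2 of 49 (4.08% against 5.73%). SSEA1+ cells had 4 of 47 (8.51%, interval 3.36 to 19.9, against 4.51%), among them a site inside Hoxc6 (chr15:103007291-103007831). Day 12 cells had 4 of 37 (10.8% against 13.4%). The 3 day 0 additions were a site inside Hoxd10, the Hoxa3 site between Hoxa2 and Hoxa4, and a site inside the Hoxb3 span (chr11:96337588-96337987). The Hoxd10 and Hoxa3 sites were present in all 3 day 10 lists, and the Hoxb3 site was in no other list.

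**Figure D4:**
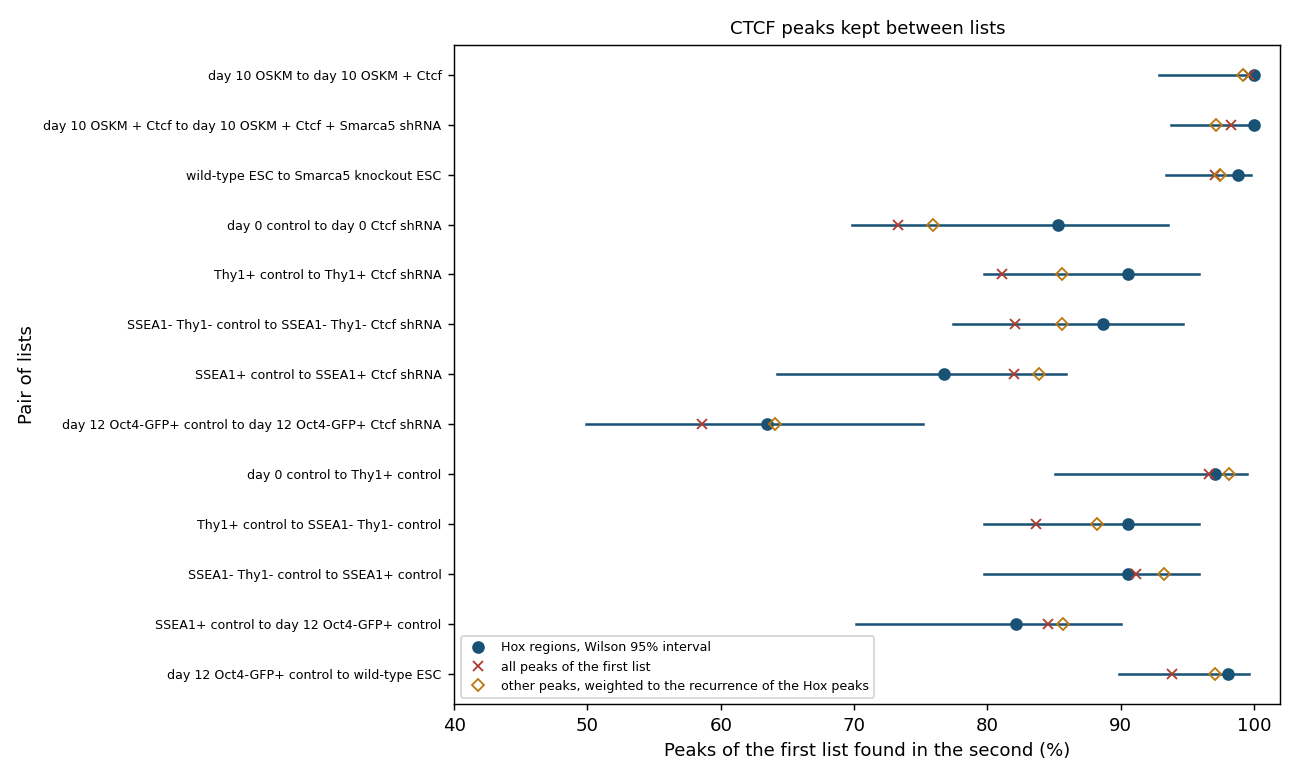
Share of the peaks of the first list found in the second (x axis, %, starting at 40) for 13 pairs of lists (rows): Hox regions with Wilson intervals, all peaks of the first list, and other peaks weighted to the recurrence of the Hox peaks. The widest gap between Hox and all peaks is at day 0, 85.3 against 73.3%, and the lowest shares are those of day 12 with Ctcf shRNA.

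Recurrence here counts the control lists of the other 3 coordinate sets that hold a peak. Of the SSEA1- Thy1- control Hox peaks, 60.4% had the full recurrence of 3, against 50.9% of the other peaks. All 32 such Hox peaks were kept under Ctcf shRNA, near the 97.8% of other peaks of that recurrence. At day 0, in Thy1+, SSEA1+ and day 12 cells, 29, 32, 31 and 25 of 32 were kept. Other peaks of that recurrence kept 78.9, 98.6, 97.8 and 79.0% there. When the other peaks were weighted to the recurrence of the Hox peaks, the expected shares were 75.9, 85.6, 85.6, 83.9 and 64.0%. These are for day 0, Thy1+, SSEA1- Thy1-, SSEA1+ and day 12 cells. The day 12 Hox share then stood at -0.58 points from its background in place of 4.90 points above it. Among 43 Hox sites present in all 4 sorted control lists, the Ctcf shRNA left 42, 43, 41 and 29 in the 4 populations (97.7, 100, 95.3 and 67.4%). For such sites of the genome the shares were 93.8, 94.2, 94.5 and 69.2%. In all 4 populations 28 were left (65.1%, as in the genome).

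Of the 19 positions lost at day 12, 14 were in 11 or more of the 15 CTCF lists (73.7%, interval 51.2 to 88.2), against 40.8% of all sites lost at day 12. Of the day 12 control sites, lost or kept, 41 of 52 in the Hox regions (78.8%, interval 66.0 to 87.8) and 64.6% in the genome were in as many lists. A set of 5 Hox sites (4.72%, against 3.11% of all CTCF sites) was in every CTCF list but that one: between Hoxb13 and Hoxb9, between Hoxb6 and Hoxb5, between Hoxa6 and Hoxa7, between Hoxd13 and Hoxd12, and beyond Hoxa13. Of these 5, 4 held SMARCA5 (interval 37.6 to 96.4%), against 62% of all such sites. On the low-numbered side of group 5 the losses were both sides of Hoxb4 inside the Hoxb3 span, the Hoxa3 site chr6:52186510-52186935 and the site between Hoxa4 and Hoxa5. Hoxb4 is known for expanding blood stem cells and Hoxa3 acts in the third pharyngeal arch. Losses at day 12 were 5 of 13 in Hoxa, 8 of 22 in Hoxb, 3 of 8 in Hoxc and 3 of 9 in Hoxd.

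Of 57 Hox sites present in at least 2 of the 5 control lists, 10 were absent under Ctcf shRNA in 2 or more of those populations (17.5%, interval 9.82 to 29.4), against 24.2% in the genome. The site between Hoxc12 and Hoxc11 (chr15:102943242-102943644) was lost in Thy1+, SSEA1- Thy1- and day 12 cells, every sorted control in which it was present. The site at 40.8 kb beyond Hoxc4 was lost in SSEA1- Thy1-, SSEA1+ and day 12 cells, and it too had been in no other sorted control. The Hoxb8 site (chr11:96284411-96284813) was lost in SSEA1- Thy1- and SSEA1+ cells, and the Hoxd10 promoter site in SSEA1+ and day 12 cells. The site between Hoxa9 and Hoxa10 (chr6:52229389-52229827) was lost in Thy1+ and SSEA1+ cells and lies 254 bp from the microRNA gene Mir196b. Around Hoxb4, the site on its Hoxb5 side was lost at day 0 and day 12. A site on its Hoxb2 side (chr11:96338101-96338734) was lost at day 0 and in SSEA1- Thy1- cells. Right beside this last site, the day 0 Ctcf shRNA list held a peak found in no other list (chr11:96337588-96337987). Whether the call had shifted was not tested. The other 3 of the 10 lay in flanks, inside Ttll6, at 39385 bp beyond Hoxb1 and at 90353 bp beyond Hoxc4. In SSEA1+ cells the losses were 4 of 31 from first to last gene and 9 of 25 in the flanks, with overlapping intervals (71.1 to 94.9% and 44.5 to 79.8% kept).

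Of the microRNA genes within the clusters, 5 belong to families with members in more than 1 cluster, shown by their mature RefSeq sequences with the seed (bases 2 to 8) in capitals. Mir615 lies in Hoxc alone.
mmu-miR-196b-5p: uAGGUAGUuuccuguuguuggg
mmu-miR-196a-5p: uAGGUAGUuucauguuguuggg
mmu-miR-10a-5p: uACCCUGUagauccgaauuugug
mmu-miR-10b-5p: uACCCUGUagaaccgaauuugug
The miR-196 family shares 1 seed and the miR-10 family another, and members of both families repress Hox messages. Mir196a-1 lies 3204 bp from a constant site between Hoxb13 and Hoxb9, Mir196a-2 2200 bp from the Hoxc10 site of the 2 lists with overexpressed Ctcf, Mir10b 9926 bp from the constant site between Hoxd8 and Hoxd4, and Mir10a 5065 bp from a site of 13 lists. Mir615, with another seed, is closest to a constant site, 1031 bp from the one beside Hoxc5. None of them overlaps a site.

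The control lists were ordered by sorted population and not by day, since the Thy1+, SSEA1- Thy1- and SSEA1+ lists each include day 9 samples. Most Hox sites present at day 0 were also found in the lists that follow in this order. From day 0 to Thy1+ cells 33 of 34 were kept (97.1%; 3.39% of all peaks were absent), and 20 of the 53 Thy1+ peaks were new (37.7% against 47%). From Thy1+ to SSEA1- Thy1- and from there to SSEA1+ cells, 48 of 53 were kept at each step (16.4% and 8.84% of all peaks absent), and 5 of 53 and then 8 of 56 were new (13.2% and 10.7% of all). SSEA1+ to day 12 kept 46 of 56 (82.1%; 15.4% absent in all) with 6 of 52 new (17.1% in all), and day 12 to wild-type ESCs 51 of 52 (98.1%; 6.18% absent in all). These steps share their control lists with the shRNA pairs. Between day 12 and ESCs, 31 of the 82 ESC peaks were new (37.8% against 40.4%), 11 of them in Hoxc. SMARCA5 was at 19 of these 31 (61.3%, interval 43.8 to 76.3), against 36.4% of all such peaks.

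A site was of pluripotent type when shared by day 12 control cells and wild-type ESCs but missing from both day 0 and Thy1+ control cells. In the Hox regions these numbered 5 of 52 (9.62%, interval 4.18 to 20.6), an interval that includes the 17.2% of all day 12 control peaks. All 5 were in flanks, 3 around Hoxb, 1 beyond Hoxc4 and 1 beyond Hoxa13. No Hox peak was of somatic type, the reverse pattern (0 of 53, which allows up to 5.66%), and 0.436% of all Thy1+ control peaks were.

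Genes that act upstream of the clusters or resemble Hox genes were followed in 3 lists by peaks within 10 kb. Under Ctcf shRNA, Polycomb repressive complex 1 and trithorax genes kept 15 of 21 peaks at day 0, 25 of 35 in Thy1+, 25 of 32 in SSEA1- Thy1-, 26 of 31 in SSEA1+ and 18 of 34 in day 12 cells. Retinoic acid genes kept 9 of 11, 20 of 23, 15 of 19, 15 of 18 and 11 of 18 in the same order. The Hox-like and Cdx genes kept 3 of 3, 7 of 9, 6 of 7, 7 of 9 and 5 of 9. Among these, Evx1 and Evx2 lie in the Hoxa and Hoxd flanks, so their peaks were also counted as Hox peaks. At day 12, Evx1 had 1 peak in the control list and 0 with Ctcf shRNA, and Evx2 had 2 and 1. Over all peaks the shares kept were 73.3, 81.1, 82.0, 82.0 and 58.6%, and each lay within the Wilson interval of each list. Cdx4, a caudal-type regulator of Hox genes, had no peak in any list. At day 10, the list with Ctcf kept all 30, 19 and 9 peaks of the Polycomb and trithorax, retinoic acid and Hox-like lists in place. Pknox2 and Pbx3, homeodomain cofactors of Hox proteins, were chosen after their values were seen. Pknox2 had 14 peaks in the day 12 control list and 8 with Ctcf shRNA, and Pbx3 had 4 and 0.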

How the data were processed

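CTCF ChIP-seq lists of 15 groups and 1 SMARCA5 list of mouse cells were analysed, with samples grouped by their titles. The submitters' processing notes name Bowtie2, MACS2 and HOMER, with Trim Galore, FastQC, Picard, SAMtools, deepTools and bedtools, and the build mm10. Roles, versions and thresholds of these tools, and how several samples became 1 list, are not given in the sources used for this work. The authors' files hold intervals of 400 bp, and the deposited score is 0 in every line, so peaks could not be ranked. Start positions are common within the day 0, day 10, sorted and ESC lists, which form 4 coordinate sets.

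Peaks were joined into sites by an overlap of at least 1 bp, and the same rule decided whether a peak was kept in another list. Alternatives were a reciprocal overlap of 50% (starts at most 200 bp apart), flanks of 0 or 50 kb, leaving out each cluster, and a background matched on recurrence. Genes, promoters and microRNAs came from RefSeq tables of GRCm38.p6, where all 38 genes were found. The 38 genes and the gene lists were chosen with earlier results of these data known. Every one of the 38 was accounted for, and named with values were those with a variable site inside or beside them and those flanking a constant site. The summed counts of a list of Hox cofactor genes are not reported here. No test was run. The overlap counts were run on simulated lists made from the wild-type ESC peaks, where 75.7% kept was recovered as 75.7%. Only isolated peaks were dropped there and starts moved little, so this recovery was nearly fixed in advance. It checks the counting and not how offset or joined peaks are handled. Counts were made in Python 3.11.15 and figures with matplotlib 3.10.9.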

Additional observations from a re-analysis of the deposited data

Results flagged for a closer look

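Under the Ctcf shRNA the number of peaks rose in some populations and fell in others for 3 of the 4 clusters, and with 1 list a group these differences were not tested. For Hoxa the change (Ctcf shRNA minus control) was 1 peak at day 0 and 1 in SSEA1- Thy1- cells, but -2 in SSEA1+ and -5 in day 12 Oct4-GFP+ cells. The day 0 gain was the Hoxa3 site between Hoxa2 and Hoxa4, and the site gained in SSEA1- Thy1- cells lies 61972 bp from Hoxa2. Hoxc changed by -1 at day 0, -3 in Thy1+ cells, -2 in SSEA1- Thy1- cells and -2 at day 12, but by 1 in SSEA1+ cells, where a Hoxc6 site was among 3 gained. For Hoxd the change was 1 at day 0, through a Hoxd10 site, and -1 in Thy1+, -3 in SSEA1+ and -2 in day 12 cells. Hoxb did not gain in number in any population. The whole lists changed by -18.2% at day 0, -14.2% in Thy1+, -13.0% in SSEA1- Thy1-, -14.2% in SSEA1+ and -32.5% in day 12 cells.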

How the results depend on the processing

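Of 188 alternative values, 154 stayed near the reported ones (counts within 1.5 times, shares within the Wilson interval), 32 moved and 2 changed sign; the cause was not tested except where fewer peaks entered. Requiring a reciprocal overlap of 50% moved none of 30 values. The 23 constant sites were 28 without the day 12 Ctcf shRNA list, and stayed within 1.5 times without the 2 Thy1+ or the 2 day 0 lists, alternatives chosen after seeing the data. Without flanks, which leaves fewer peaks, the control lists of day 0, Thy1+, SSEA1- Thy1-, SSEA1+ and day 12 had 22, 31, 31, 31 and 29 Hox peaks, the last 4 with Ctcf shRNA 29, 28, 28 and 19, day 10 OSKM 32, and wild-type, knockout and SMARCA5 ESC lists 44, 50 and 37. The share kept without flanks was 100% from wild-type to knockout ESCs (also with 50 kb flanks or without Hoxb), 87.1% in SSEA1+ cells under Ctcf shRNA, 96.8% from Thy1+ to SSEA1- Thy1- and 90.3% from SSEA1+ to day 12 controls. Without Hoxb it was 94.1% at day 0 under Ctcf shRNA and 100% from day 0 to Thy1+ controls; without Hoxa, 100% from day 12 to ESCs. New peaks under Ctcf shRNA were 0% without flanks or with 50 kb flanks in Thy1+ and SSEA1- Thy1- cells. New control peaks without flanks were 3.23% in SSEA1- Thy1- and 3.45% in day 12 cells, the latter 4.88% with 50 kb. SMARCA5 held 70.5% without flanks. The pluripotent-type share was 0% without flanks and 2.44% with 50 kb. Against peaks of the same recurrence, the Hox share minus background was -0.58 points at day 12 under Ctcf shRNA and -1.06 from day 0 to Thy1+ controls. No paired analysis was possible because each group has 1 pooled list and no test was run, and for the same reason no replicate could be left out. Read depth is unknown and peak strength is not given, so partial loss of binding is not visible.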
